A study of Mus musculus with 12 samples.

Results

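The p53 targets and apoptosis genes described here are 41 genes of a table of 17576, listed by symbol with earlier results of these data known. They comprise Trp53, its brake Mdm2, targets of p53 that act in cell cycle arrest, DNA repair and death, and genes of the BCL2 family, caspases and CDK inhibitors beside them, and 26 of the 41 are counted here as p53 targets. A gene was tested when it had at least 1 RPKM (reads scaled to gene length and to the mapped reads of the library) in at least 3 libraries, which 40 members and 25 of the p53 targets did. Eda2r, a receptor of the TNF receptor family, did not pass, with no library above 0.55 RPKM.

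RNA was sequenced from C18-4 cells, an immortalized mouse line derived from type A spermatogonia, in 12 libraries of 4 groups with 3 libraries each. Group 3NC carried the lentiviral vector LV3 with a control shRNA, and group KD, the lncRNA5251 knockdown, carried LV3 with a mix of shRNAs against lncRNA5251. Group 5NC carried the vector LV5 without an insert, and group OV, the lncRNA5251 overexpression, carried LV5 with the full length of lncRNA5251. All groups were stably transfected cultures of the same line, and the strain field of the labels reads IRC mouse. The labels name lncRNA5251, while a heading of the supplementary methods of the study names lncRNA8276 for the experiment in this line, and the labels were followed here. The vector differs between the KD and OV arms, so vector, control sequence and culture history cannot be told apart from the group in a comparison of 3NC with 5NC or of KD with 5NC. Whether the 3 libraries of a group came from separate cultures is not stated, so p-values measure the spread between these libraries, which may be technical.

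The transcription factor p53 is stabilized after DNA damage and other stress, when its ubiquitin ligase MDM2 releases it, and it then raises the transcription of genes for arrest, repair and cell death. Its best known target, Cdkn1a, encodes p21, which inhibits cyclin-dependent kinases and through the DREAM complex lowers genes of the cell cycle. In the testis p53 is known for the removal of damaged germ cells. The C18-4 line was established with a simian virus large T antigen, a protein that binds p53 and RB, and the level of this antigen was not measured here.

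The sums of RPKM were 533099 to 580920 per library, the number of reads behind them is unknown, and lncRNA5251 has no row of its own in the table, so its level was not checked. Of 16 germ cell markers, 14 were in the table, 11 of these were under 1 RPKM in every library, and Ret, Nanos2, Kit and Pou5f1 were listed at 0 in all. The spermatogonial markers Ddx4, Gfra1 and Zbtb16 reached at most 0.07, 0.17 and 0.04 RPKM, so these defining markers of the labelled cell type were at or near 0. Of the list Uchl1 was at 60.1 to 123 RPKM, Etv5 at 2.18 to 7.89 and Id4 at 0.83 to 1.82, and these were lower in KD than in 3NC by log2 differences of -0.24, -1.40 and -0.40 (limma adjusted p = 0.00525, 2.16e-09 and 0.00143). In 5NC against 3NC their log2 differences were 0.24, -1.11 and -0.17 (limma adjusted p = 0.00563, 1.8e-08 and 0.127). The part of this in the results below was not tested. Of 11 Sertoli markers 10 were in the table and 5 of these were under 1 RPKM in every library, Sox9 and Amh among them at no more than 0.03 and 0.15 RPKM, while Wt1 was at 49.8 to 57.5, Gata4 at 3.98 to 6.77 and Clu at 2.40 to 8.24 RPKM. Of the 5 tested, 2 were higher and 0 lower in KD than in 3NC (limma adjusted p at most 0.05). These are 40% and 0%, beside 31.9% and 23.5% of all genes tested. In 5NC 3 were higher (60%, all genes 31%) and 1 lower (20%, all genes 25.6%) than in 3NC. Clu was higher in both (log2 differences 0.85 and 1.05), and Rhox5 was lower in 5NC (-1.02). Of 10 fibroblast and smooth muscle markers, Vim and Col1a1 were the most abundant, at 520 to 633 and 249 to 437 RPKM, Myh11 and Col1a2 reached at most 0.07 and 0.58 RPKM, and the summed level of the 10 markers of that list was 860 to 904 RPKM for 3NC, 972 to 1070 for KD, 1094 to 1139 for 5NC and 1158 to 1256 for OV. This sum was lowest in 3NC, the group in which several p53 targets below were highest, and its part in those results was not tested. Vim had means of 536, 541 and 537 RPKM in 3NC, KD and 5NC, and Col1a1 had means of 256, 367 and 381. Of the 8 markers of the list tested, 6 were higher (75%, all genes 31.9%) and 0 lower (all genes 23.5%) in KD than in 3NC (limma adjusted p at most 0.05). In 5NC 4 were higher (50%, all genes 31%) and 2 lower (25%, all genes 25.6%) than in 3NC. By the study's rule, given below, Acta2 was higher in both, with means of 8.52 RPKM in 3NC, 18.6 in KD and 21.2 in 5NC (log2 differences 1.04 and 1.22), and Dcn was higher in 5NC, with means of 21.6, 36.1 and 112 RPKM (2.32 for 5NC against 3NC). The 2 lower in 5NC were Cnn1, with means of 4.94 RPKM in 3NC and 2.83 in 5NC, and Pdgfra, with means of 1.32 and 0.877 RPKM. In bulk RNA a smaller share of cells that express a gene and less RNA per cell cannot be told apart. The libraries OV replicate 3, KD replicate 3 and OV replicate 1 lay farthest from their group means, with root mean square deviations of 0.128, 0.117 and 0.107 log2 units over the genes tested, against 0.0728 to 0.0955 for the other 9.

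Changes are given as differences of mean log2(RPKM + 1), a scale that understates the change of genes with low values, with their standard error (SE) from limma fitted to all 12 libraries and an adjusted p from the Benjamini-Hochberg method over all 11435 genes tested. A member is said to rise or fall when this adjusted p was at most 0.05. The rule of the study is stricter and asks for an adjusted p of at most 0.001 and a log2 difference of at least 1 in size. The study put it on results of the DEGseq package, while here its cut-offs are put on limma values. Counts by this rule are therefore not those that the study reported.

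KD was compared to 3NC to ask what the knockdown did against its own vector. By the study's rule 4 of 40 members fell in KD, Btg2, Plk2, Cdkn1a and Aen, where 1.08% of all genes fell, and 0 rose, where 0.498% of all genes rose. At an adjusted p of at most 0.05, 18 members fell (45%, background 23.5%) and 7 rose (17.5%, background 31.9%), and at an unadjusted p under 0.05 in limma 19 fell and 8 rose, where 2944 of the 11435 genes fell and 3966 rose. The median log2 difference of the 40 members was -0.15, beside 0.04 for all genes tested.

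The control vectors were compared with each other because they are the baseline of both arms. Between 5NC and 3NC, by the study's rule 1 member fell, Cdkn1a (background 1.05%), and 0 rose (background 1.56%). At an adjusted p of at most 0.05, 18 members were lower in 5NC (45%, background 25.6%) and 10 were higher (25%, background 31%), and at an unadjusted p under 0.05 these counts were 19 and 10, and those of all 11435 genes 3203 and 3818.

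KD was also set against the other control. Compared to 5NC, 18 members were lower in KD (45%, background 31.4%) and 12 were higher (30%, background 34%), and by the study's rule 0 members were lower (background 2.29%) and 0 higher (background 1.26%), while at an unadjusted p under 0.05 in limma 19 were lower and 13 higher, where 3728 of the 11435 genes were lower and 4067 higher. OV was compared to 5NC for the effect of the overexpression vector. By the study's rule 0 members rose and 0 fell, where 0% of all genes rose and 0% fell, and at an adjusted p of at most 0.05 in limma 7 members rose (17.5%, background 8.07%) and 4 fell (10%, background 13.9%), against 12 and 6 at an unadjusted p under 0.05, where 1601 of the 11435 genes rose and 2639 fell. KD against 3NC and 5NC against 3NC share the 3NC libraries, and the comparisons with 5NC share those of 5NC, so their values are set side by side and are not independent.

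**Figure D1:**
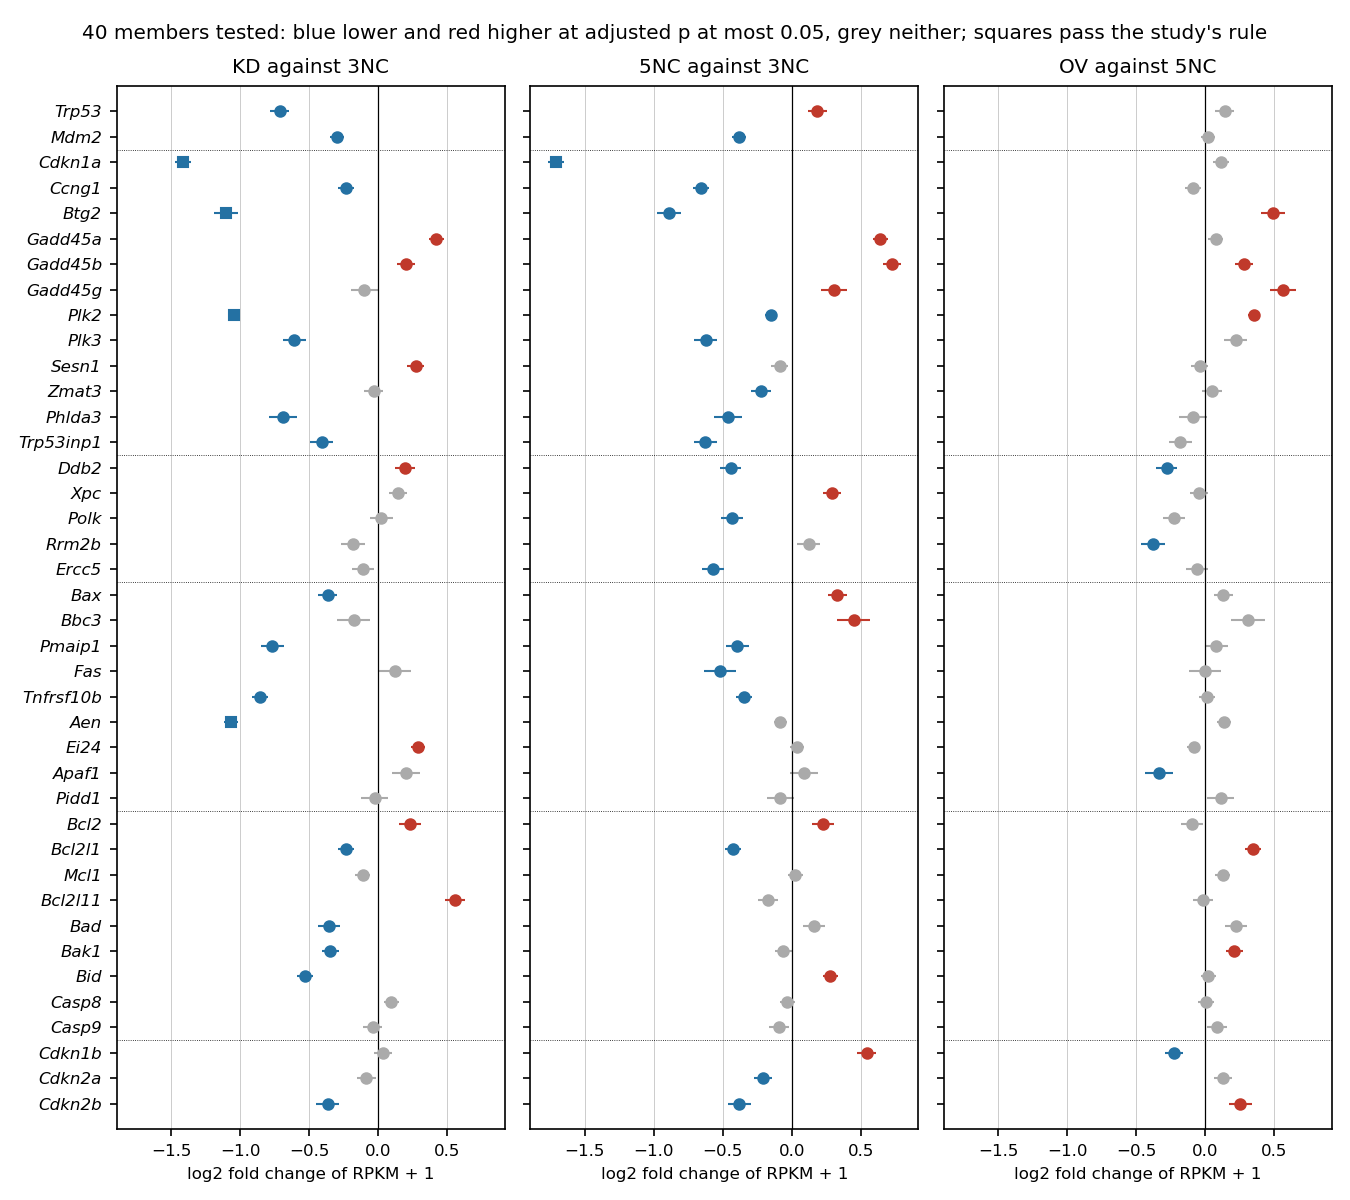
Difference of mean log2(RPKM + 1) with its SE for the 40 members tested, in rows grouped by role with dotted lines between roles, for KD against 3NC, 5NC against 3NC and OV against 5NC. Cdkn1a lies farthest to the left in the first and second panels, at -1.41 and -1.71, the squares are the members that pass the study's rule, and the third panel holds no value beyond 0.56 in size.

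Trp53 itself was lowest in KD. It was at 119, 114 and 121 RPKM in 3NC, 77.0, 72.3 and 65.5 in KD, 137, 129.9 and 135 in 5NC, and 160.4, 154 and 132 in OV. Every KD library lay below every other library, every 3NC library lay below those of 5NC and OV, and only 5NC and OV overlapped. The Trp53 level fell by 0.71 ± 0.07 (SE) in KD compared to 3NC (limma adjusted p = 6.24e-07), and KD was 0.90 ± 0.07 lower than 5NC (log2 difference -0.90, adjusted p = 3.01e-08). Between the controls Trp53 was higher by 0.19 ± 0.07 in 5NC (adjusted p = 0.0313), a call that ended when any of 4 libraries was left out, with the highest adjusted p, 0.106, without 3NC replicate 2, and also without 3NC replicate 1, 5NC replicate 1 or 5NC replicate 3. The call also ended in limma with no filter on low values (adjusted p = 0.0669) and with no intensity trend (0.0521). In OV the difference from 5NC was 0.14, with a 95% interval from -0.01 to 0.29 (adjusted p = 0.15).

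Mdm2 encodes the ubiquitin ligase that holds p53 down and is itself a p53 target. It was at 39.0, 38.6 and 38.2 RPKM in 3NC, 30.6, 30.0 and 33.3 in KD, 29.4, 30.3 and 28.6 in 5NC, and 29.5, 28.8 and 31.2 in OV. The 3NC libraries were the highest and the other 3 groups overlapped. Mdm2 was thus lower than in 3NC in KD (log2 difference -0.30 ± 0.05 SE, limma adjusted p = 0.000159) and in 5NC (-0.38 ± 0.05, adjusted p = 1.41e-05), while Trp53 was low in KD only and not in 5NC. KD and 5NC differed in Mdm2 by 0.08, with a 95% interval from -0.02 to 0.19.

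Cdkn1a was high in 3NC and low in the other 3 groups. Its level was 71.7, 69.7 and 71.7 RPKM in 3NC, 26.2, 26.7 and 25.4 in KD, 22.3, 19.9 and 20.9 in 5NC, and 24.9, 21.9 and 21.7 in OV. The 3NC libraries lay far above the rest, KD lay above 5NC and OV without overlap, and 5NC and OV overlapped. The mean of 3NC, 71.0 ± 1.18 RPKM (SD, n = 3), was 2.73-fold that of KD and 3.38-fold that of 5NC. The log2 difference was -1.41 ± 0.06 (SE) for KD against 3NC (limma adjusted p = 8.98e-11) and -1.71 ± 0.06 for 5NC against 3NC (limma adjusted p = 6.33e-12). The exact permutation test of 3 libraries against 3, two-sided, gave p = 0.1 for both, the smallest it can give. Against 5NC, KD was higher by 0.30 ± 0.06 (limma adjusted p = 0.000348), so the direction of Cdkn1a in KD depended on the control. OV differed from 5NC by 0.11, with a 95% interval from -0.01 to 0.24 (adjusted p = 0.172).

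Beside the other p53 targets, Cdkn1a had the largest fall of the 25 tested on the log2(RPKM + 1) scale, in KD against 3NC and in 5NC against 3NC. As a ratio of mean RPKM, 3NC was 2.73-fold KD for Cdkn1a and 2.67-fold for Btg2, so in KD they were close. For 3NC over 5NC these ratios were 3.38 and 2.17. In KD, of the other 24 targets, 11 fell, 4 rose and 9 did neither, with a median log2 difference of -0.18 and a range from -1.10 for Btg2 to 0.42 for Gadd45a. In 5NC, 14 of the 24 were lower than in 3NC, 4 were higher and 6 neither, with a median of -0.29 and a range from -0.89 for Btg2 to 0.64 for Gadd45a. None of the 24 lay below Cdkn1a in either comparison, and of all 11435 genes 45 lay below it in KD and 20 in 5NC. The shares of the other targets that were lower were 45.8% in KD and 58.3% in 5NC, beside 23.5% and 25.6% of all genes tested, and the shares that were higher were 16.7% in both, beside 31.9% and 31%. In KD against 5NC, where Cdkn1a was higher, 10 of the other 24 were lower (41.7%, background 31.4%) and 9 higher (37.5%, background 34%), and 18 of them lay below it. In OV against 5NC 3 of the 24 fell (12.5%, background 13.9%) and 2 rose (8.33%, background 8.07%), shares close to those of all genes, around a median of 0.01.

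**Figure D2:**
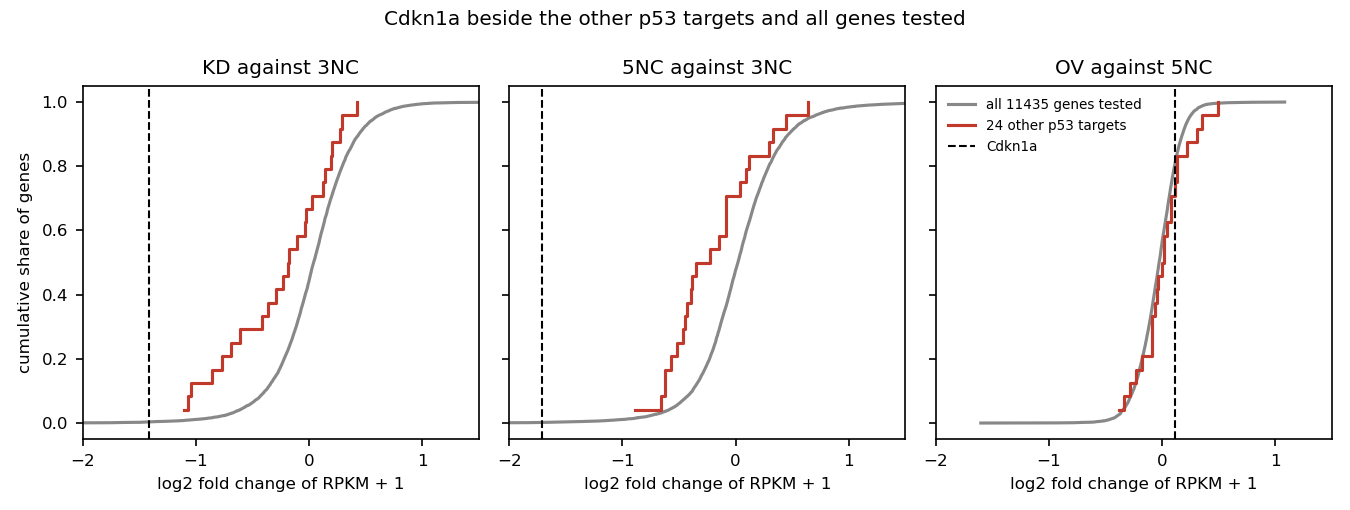
Cumulative share of genes (vertical axis) up to a given difference of mean log2(RPKM + 1) (horizontal axis) for all 11435 genes tested, the 24 other p53 targets and, as a dashed line, Cdkn1a, with the few genes beyond the axis limits left off. In the first and second panels the other targets lie to the left of all genes over most of their range (medians -0.18 and -0.29, beside 0.04 and 0.02) and Cdkn1a lies left of all of them, and in the third panel it lies among them.

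The promoters of several of these targets hold matches to the p53 half-site, the 10-base unit of a p53 response element, and those of Cdkn1a and of some other members that differ in direction below are shown as examples. The 250 bases before each start in the RefSeq promoter table (GRCm38.p6) were searched for the p53 consensus half-site, which is its own reverse complement, so that a single search covers both strands. Of the 41 members 34 had an entry, and 10 of these (29.4%) held a match, as did 9 of 19 p53 targets (47.4%) and 2216 of all 27025 genes of the table (8.2%). A pair of half-sites at most 13 bases apart, the form of a full response element, was found in Cdkn1a alone among the 34 members and in 18 of the 27025 genes (0.0666%). Trp53, Sesn1, Polk and Ei24 also held 1 half-site each, and these are not shown. A match describes letters and is no evidence of binding in these cells. In the lines below, each 5′ to 3′ on the strand of its gene, capitals mark the half-sites.
Cdkn1a, chr17:29090901-29090942, plus strand, half-sites 42 to 73 bases before the upstream of its annotated starts: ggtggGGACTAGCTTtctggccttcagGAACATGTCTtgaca
Mdm2, chr10:117710925-117710954, minus strand: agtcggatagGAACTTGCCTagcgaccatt
Ccng1, chr11:40755452-40755481, minus strand: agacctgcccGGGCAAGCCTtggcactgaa
Gadd45a, chr6:67037428-67037457, minus strand: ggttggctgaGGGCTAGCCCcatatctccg
Aen, chr7:78895927-78895956, plus strand: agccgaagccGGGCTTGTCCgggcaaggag
Bax, chr7:45467080-45467109, minus strand: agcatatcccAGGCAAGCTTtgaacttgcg

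The arrest and stress genes hold Cdkn1a, Btg2 and Plk2, 3 of the 4 members that fell in KD compared to 3NC by the study's rule. Of 12 tested, Cdkn1a included, 7 fell (58.3%, background 23.5%) and 3 rose (25%, background 31.9%) in KD compared to 3NC. In 5NC 8 were lower (66.7%, background 25.6%) and 3 higher (25%, background 31%) than in 3NC. In OV compared to 5NC 4 rose (33.3%, background 8.07%) and 0 fell (background 13.9%), with 5 and 1 at an unadjusted p under 0.05 in limma.

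Btg2, an antiproliferative factor that works with the CCR4-NOT deadenylase, came closest to Cdkn1a. It was at 5.85, 5.76 and 5.69 RPKM in 3NC, 1.90, 2.09 and 2.49 in KD, 2.77, 2.5 and 2.69 in 5NC, and 4.62, 4.19 and 3.64 in OV. No groups overlapped, with 3NC highest, then OV, 5NC and KD. Btg2 was lower in KD than in 3NC by a log2 difference of -1.10 ± 0.09 (SE, limma adjusted p = 6.18e-08), and lower in 5NC than in 3NC by -0.89 ± 0.09 (adjusted p = 4.6e-07). Unlike Cdkn1a it rose in OV compared to 5NC, by 0.49 ± 0.09 (adjusted p = 0.00229). KD was lower than 5NC by -0.21 (adjusted p = 0.0386), a call that ended without KD replicate 1 (adjusted p = 0.163), KD replicate 2, 5NC replicate 1 or 5NC replicate 3. The call also ended in limma with no filter on low values (adjusted p = 0.0635), with only the 6 libraries compared (0.0555) and with a replicate block (0.0518).

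The polo-like kinases Plk2 and Plk3, stress-responsive kinases of the cell cycle, behaved differently from each other. Plk2 was at 52.98, 51.45 and 51.57 RPKM in 3NC, 24.5, 24.4 and 25.2 in KD, 46.5, 47.2 and 46.6 in 5NC, and 57.1, 61.8 and 60.9 in OV. Its KD libraries stood at less than the other 9 and no groups overlapped. Plk2 was lower in KD against 3NC by -1.04 ± 0.04 (SE, limma adjusted p = 9.79e-11) and against 5NC by -0.89 ± 0.04 (adjusted p = 2.17e-10), and it rose by 0.35 ± 0.04 in OV (adjusted p = 0.000211). Its difference between the controls was small, -0.15 ± 0.04 (adjusted p = 0.00824). Plk3 was at 7.94, 7.91 and 8.51 RPKM in 3NC, 4.82, 5.42 and 4.71 in KD, 5.06, 4.75 and 4.95 in 5NC, and 6.74, 5.99 and 5.05 in OV. The 3NC libraries were the highest and the other groups overlapped. Plk3 was lower than in 3NC by -0.61 ± 0.08 in KD (limma adjusted p = 2e-05) and by -0.62 ± 0.08 in 5NC (adjusted p = 1.52e-05), and KD and 5NC differed by 0.01, with a 95% interval from -0.16 to 0.19.

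Phlda3, an inhibitor of AKT that competes for membrane lipids, was likewise highest in 3NC. It was at 24.4, 21.5 and 23.0 RPKM in 3NC, 14.8, 14.4 and 12.3 in KD, 16.7, 15.8 and 16.6 in 5NC, and 18.1, 15.8 and 12.5 in OV. KD and 5NC did not overlap, while the wide OV group overlapped both. Its log2 difference from 3NC was -0.69 ± 0.10 (SE) in KD (limma adjusted p = 3.86e-05) and -0.46 ± 0.10 in 5NC (adjusted p = 0.00119).

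Trp53inp1, a stress-induced partner of p53, and Ccng1, which encodes cyclin G1, had lower means in the LV5 groups than in KD. Trp53inp1 was at 4.76, 4.91 and 4.79 RPKM in 3NC, 3.71, 2.95 and 3.51 in KD, 2.80, 2.94 and 2.58 in 5NC, and 2.06, 2.36 and 2.58 in OV. Ccng1 was at 53.1, 53.4 and 51.9 RPKM in 3NC, 44.9, 41.8 and 47.8 in KD, 34.0, 32.8 and 32.4 in 5NC, and 30.4, 29.3 and 33.5 in OV. For both genes 3NC was highest, KD next, and 5NC and OV lowest and overlapping. Compared to 3NC, Trp53inp1 was lower by -0.41 ± 0.08 (SE) in KD (limma adjusted p = 0.000644) and by -0.63 ± 0.08 in 5NC (adjusted p = 1.33e-05). In KD it was 0.22 ± 0.08 higher than in 5NC (adjusted p = 0.0323), a call that ended with no filter on low values (adjusted p = 0.0505), with quantile normalization (0.0767), and without 5NC replicate 1 (0.0604), 5NC replicate 3 (0.117), KD replicate 1 (0.135) or KD replicate 3 (0.0829). Ccng1 was lower by -0.23 ± 0.06 in KD (limma adjusted p = 0.00276) and by -0.66 ± 0.06 in 5NC (adjusted p = 1.51e-07).

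The Gadd45 genes, small stress sensors that bind MAP kinase kinases and PCNA, went the other way. Gadd45a, the member of the family that p53 induces directly, was at 48.9, 54.0 and 49.4 RPKM in 3NC, 67.4, 67.5 and 69.7 in KD, 82.4, 77.3 and 79.4 in 5NC, and 90.9, 80.0 and 81.7 in OV. Gadd45b was at 45.0, 40.8 and 45.7 RPKM in 3NC, 51.8, 51.2 and 48.6 in KD, 81.0, 68.1 and 70.5 in 5NC, and 94.3, 87.5 and 85.0 in OV. Both were lowest in 3NC, higher in KD and higher again in 5NC, without overlap between these 3 groups. Gadd45a was higher than in 3NC by 0.42 ± 0.05 (SE) in KD (limma adjusted p = 1.09e-05) and by 0.64 ± 0.05 in 5NC (adjusted p = 1.15e-07). Gadd45b was higher by 0.20 ± 0.07 in KD (limma adjusted p = 0.0156), a call that ended without 3NC replicate 2 (adjusted p = 0.0851) or KD replicate 1 (adjusted p = 0.0549), and by 0.73 ± 0.07 in 5NC (adjusted p = 2.46e-07). The third gene, Gadd45g, was at 25.4, 22.3 and 24.5 RPKM in 3NC, 21.7, 25.9 and 19.8 in KD, 30.8, 28.5 and 30.7 in 5NC, and 52.1, 43.5 and 39.7 in OV. OV stood above all other libraries, and 3NC and KD overlapped (log2 difference -0.10, 95% interval from -0.31 to 0.11). In OV compared to 5NC, Gadd45g rose by 0.56 ± 0.10 (limma adjusted p = 0.00218) and Gadd45b by 0.28 ± 0.07 (adjusted p = 0.0099, or 0.0545 without 5NC replicate 2). Gadd45g was also higher in 5NC than in 3NC, by 0.31 ± 0.10 (adjusted p = 0.0135, or 0.0622 without 3NC replicate 2).

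Sesn1, a sestrin that restrains mTORC1, was highest in KD, with a mean of 13.1 ± 0.316 RPKM (SD, n = 3) against 10.7 ± 0.598 in 3NC, a rise of 0.27 ± 0.06 on the log2 scale (SE, limma adjusted p = 0.00212). Zmat3, an RNA-binding zinc finger protein, had means of 2.94 to 3.59 RPKM over the 4 groups and differed between KD and 3NC by -0.03, with a 95% interval from -0.19 to 0.12.

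**Figure D3:**
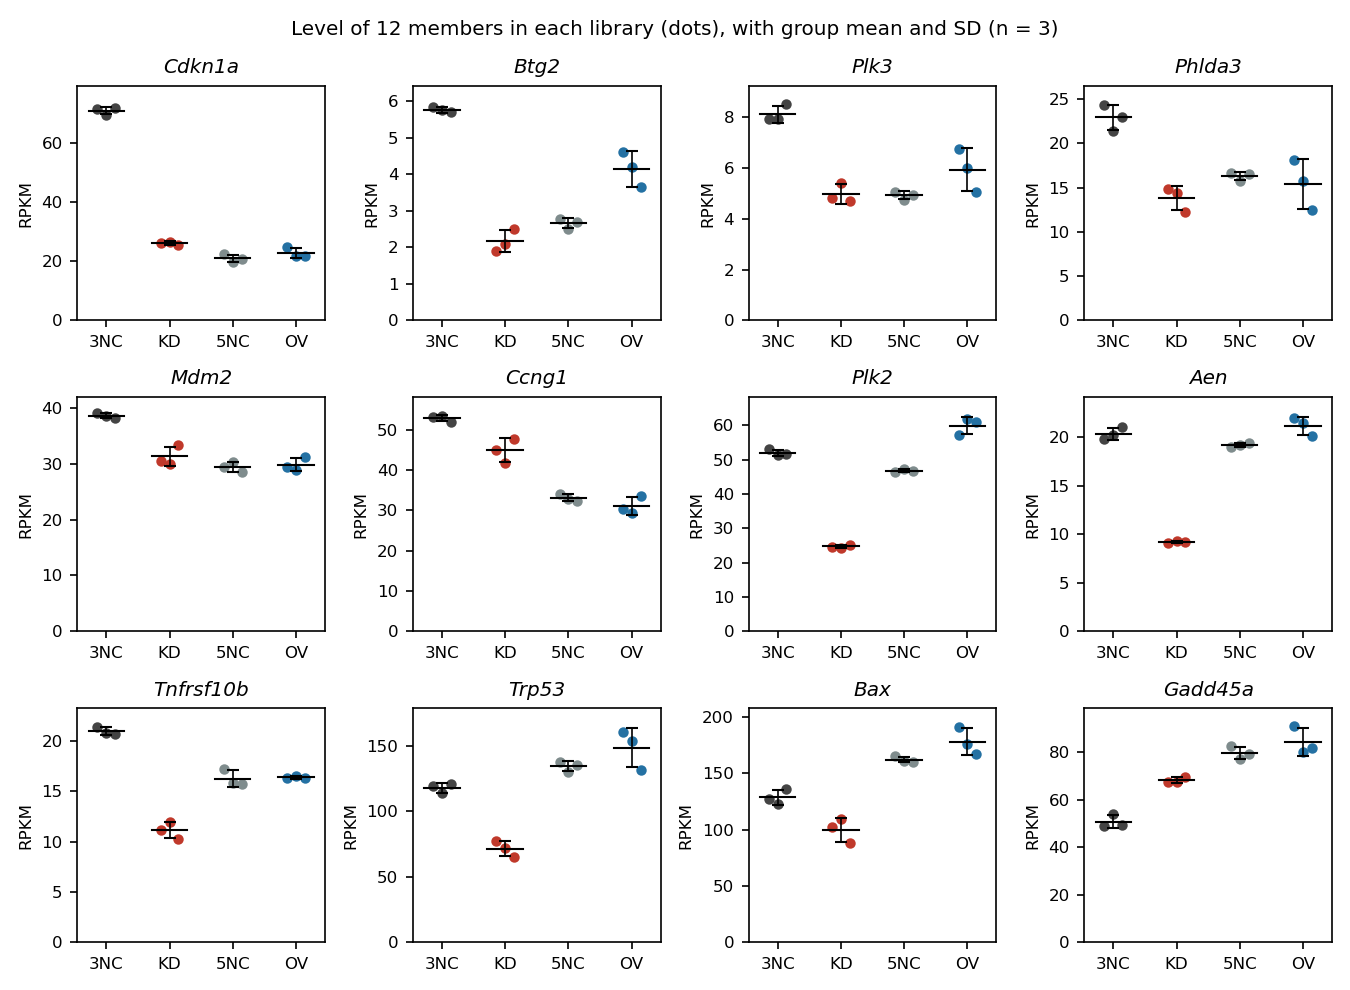
RPKM (vertical axes, from 0) of 12 members in each of the 12 libraries as dots, with the mean and SD of each group of 3. In the upper row and for Mdm2 and Ccng1 the 3NC libraries are the highest, Plk2, Aen, Tnfrsf10b, Trp53 and Bax are lowest in KD, and Gadd45a is lowest in 3NC.

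The DNA repair members act in nucleotide excision repair, in synthesis across lesions and in the supply of nucleotides. Of 5 tested, 1 rose (20%, background 31.9%) and 0 fell (background 23.5%) in KD compared to 3NC, against 2 and 1 at an unadjusted p under 0.05 in limma. In 5NC 3 were lower (60%, background 25.6%) and 1 higher (20%, background 31%) than in 3NC, and in KD 3 were higher (60%, background 34%) and 2 lower (40%, background 31.4%) than in 5NC. In OV compared to 5NC 2 fell (40%, background 13.9%) and 0 rose (background 8.07%). Ercc5, the endonuclease XPG of nucleotide excision repair, was at 8.22, 8.96 and 8.33 RPKM in 3NC, 8.32, 7.08 and 8.05 in KD, 5.79, 5.07 and 5.31 in 5NC, and 4.53, 5.32 and 5.55 in OV. The LV3 groups overlapped with each other and lay above the LV5 groups, which overlapped too. Ercc5 was lower in 5NC than in 3NC by -0.57 ± 0.08 (SE, limma adjusted p = 2.17e-05), and Polk, a translesion polymerase, by -0.43 ± 0.08 (adjusted p = 0.000373). Ddb2, which recognizes ultraviolet lesions, had mean levels of 12.8 RPKM for 3NC, 14.8 for KD, 9.17 for 5NC and 7.38 for OV, with no overlap of any groups. It was lower in 5NC than in 3NC by -0.44 ± 0.07 (limma adjusted p = 0.000128). Its rise in KD, 0.19 ± 0.07 (adjusted p = 0.0368), ended without any one of the 3NC libraries, KD replicate 2 or KD replicate 3, with the highest adjusted p, 0.122, without KD replicate 3. The call also ended in limma with no filter on low values (adjusted p = 0.0623) and with quantile normalization (0.0564). Xpc, the partner of Ddb2 in damage recognition, was higher in 5NC than in 3NC by 0.29 ± 0.06 (limma adjusted p = 0.00105). Rrm2b, the p53-induced subunit of ribonucleotide reductase, fell in OV compared to 5NC by 0.38 ± 0.08 (adjusted p = 0.00796), from 15.1 to 11.4 RPKM.

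Among the p53 targets that act in cell death, Aen, Tnfrsf10b and Pmaip1 had the largest falls in KD compared to 3NC. Of 9 tested, 4 fell (44.4%, background 23.5%) and 1 rose (11.1%, background 31.9%) in KD compared to 3NC. In 5NC 3 were lower (33.3%, background 25.6%) and 2 higher (22.2%, background 31%) than in 3NC. In OV compared to 5NC, where 13.9% of all genes fell and 8.07% rose, 1 fell and 0 rose (1 and 2 at an unadjusted p under 0.05 in limma).

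Aen, an exonuclease that degrades DNA in apoptosis, was low in KD only. It was at 19.8, 20.24 and 21.01 RPKM in 3NC, 9.05, 9.28 and 9.23 in KD, 19.0, 19.2 and 19.4 in 5NC, and 22.0, 21.4 and 20.1 in OV. The KD libraries lay below the other 9, whose groups were close to one another. Aen was lower in KD than in 3NC by -1.07 ± 0.05 (SE, limma adjusted p = 3.76e-10) and lower than in 5NC by -0.99 ± 0.05 (adjusted p = 3.27e-10), and the controls differed by -0.08, with a 95% interval from -0.19 to 0.03.

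Tnfrsf10b, a death receptor for TRAIL, and Pmaip1, the BH3-only protein NOXA, were highest in 3NC and lowest in KD. Tnfrsf10b was at 21.4, 20.8 and 20.7 RPKM in 3NC, 11.2, 11.9 and 10.3 in KD, 17.2, 15.8 and 15.7 in 5NC, and 16.3, 16.5 and 16.3 in OV. Pmaip1 was at 4.81, 4.45 and 4.63 RPKM in 3NC, 1.92, 2.45 and 2.58 in KD, 3.21, 3.37 and 3.27 in 5NC, and 3.39, 3.28 and 3.94 in OV. In both genes only 5NC and OV overlapped. Tnfrsf10b was lower in KD than in 3NC by -0.86 ± 0.06 (SE, limma adjusted p = 1.37e-08) and in 5NC by -0.35 ± 0.06 (adjusted p = 0.000116). Pmaip1 was lower by -0.77 ± 0.08 in KD (limma adjusted p = 2.32e-06) and by -0.39 ± 0.08 in 5NC (adjusted p = 0.00105).

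Fas, the receptor of the FAS ligand, was at 7.26, 7.34 and 4.81 RPKM in 3NC, 6.91, 6.48 and 7.75 in KD, 3.79, 4.05 and 4.61 in 5NC, and 4.36, 4.21 and 3.84 in OV. 3NC replicate 3 lay near the 5NC libraries, and 3NC and KD overlapped, as did 5NC and OV. Fas was lower in 5NC than in 3NC by -0.52 ± 0.12 (SE, limma adjusted p = 0.00158), and KD differed from 3NC by 0.12, with a 95% interval from -0.13 to 0.37.

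Bax, which forms pores in the outer mitochondrial membrane, had means of 128.8 ± 6.53 RPKM (SD, n = 3) for 3NC, 100.05 ± 10.8 for KD, 162 ± 2.57 for 5NC and 178 ± 12.2 for OV, with no overlap of groups. It fell in KD by 0.37 ± 0.07 (SE, limma adjusted p = 0.000374) and was higher in 5NC than in 3NC by 0.33 ± 0.07 (adjusted p = 0.000818). Bbc3, the BH3-only protein PUMA, was likewise higher in 5NC than in 3NC, by 0.45 ± 0.12 (adjusted p = 0.00533), with means of 3.81 and 2.53 RPKM, while its difference between KD and 3NC was -0.18, with a 95% interval from -0.44 to 0.08. Ei24, a membrane protein of the endoplasmic reticulum, rose in KD by 0.29 ± 0.05 (adjusted p = 0.000175). Apaf1, the scaffold of the apoptosome, and Pidd1, the scaffold of the PIDDosome, had group means of 4.66 to 6.66 and 2.65 to 2.94 RPKM. Neither passed the test in KD against 3NC or in 5NC against 3NC, and Apaf1 fell in OV by 0.34 ± 0.10 (adjusted p = 0.0302), a call that ended without any of the 5NC libraries, OV replicate 1 or OV replicate 2, with the highest adjusted p, 0.138, without OV replicate 1. The call also ended in limma with no filter on low values (adjusted p = 0.0745), with only the 6 libraries compared (0.0704) and with quantile normalization (0.0912).

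The BCL2 family and caspases are counted here apart from the p53 targets. Of 9 tested, 4 fell (44.4%, background 23.5%) and 2 rose (22.2%, background 31.9%) in KD compared to 3NC. In 5NC 1 was lower (11.1%, background 25.6%) and 2 were higher (22.2%, background 31%) than in 3NC, and in OV 2 rose (22.2%, background 8.07%) and 0 fell (background 13.9%) compared to 5NC (4 and 0 at an unadjusted p under 0.05 in limma).

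Bcl2l11 and Bid, both of them BH3-only activators of mitochondrial death, changed in opposite directions. Bcl2l11, which encodes BIM, was at 7.76, 7.29 and 6.98 RPKM in 3NC, 11.58, 10.3 and 11.97 in KD, 6.25, 6.44 and 6.47 in 5NC, and 5.71, 6.45 and 6.79 in OV. Bid, which links death receptors to mitochondria, was at 17.7, 16.8 and 16.6 RPKM in 3NC, 11.7, 11.1 and 11.6 in KD, 21.79, 20.95 and 19.89 in 5NC, and 21.4, 22.4 and 19.9 in OV. The KD libraries were the highest of all for Bcl2l11 and the lowest of all for Bid. Bcl2l11 rose in KD compared to 3NC by 0.56 ± 0.07 (SE, limma adjusted p = 1.2e-05) and was 0.73 ± 0.07 higher than in 5NC (adjusted p = 4.51e-07). Bid was lower in KD than in 3NC by -0.53 ± 0.06 (limma adjusted p = 1.73e-06) and lower than in 5NC by -0.81 ± 0.06 (adjusted p = 1.09e-08).

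Bad, a BH3-only protein that binds the survival proteins, and Bak1, the pore-forming relative of Bax, also were lowest in KD, by -0.35 ± 0.08 (SE, limma adjusted p = 0.00143) and -0.35 ± 0.06 (adjusted p = 0.000222) against 3NC. Of the survival genes, Bcl2l1, which encodes BCL-XL, was lower than in 3NC in KD by -0.23 ± 0.06 (limma adjusted p = 0.00342) and in 5NC by -0.43 ± 0.06 (adjusted p = 2.08e-05), and rose in OV compared to 5NC by 0.35 ± 0.06 (adjusted p = 0.00207), from 23.5 to 30.1 RPKM. Bcl2 was low in all groups, with means of 1.90 to 2.40 RPKM. Its rises in KD (adjusted p = 0.023) and 5NC (adjusted p = 0.0246) against 3NC each ended without any of 3 libraries, 3NC replicates 1 and 2 and KD replicate 3 or 5NC replicate 2, with highest adjusted p of 0.0929 and 0.0979. Quantile normalization also ended the call in KD, where the log2 difference of 0.23 became 0.15 (adjusted p = 0.124). Mcl1 and the initiator caspases Casp8 and Casp9 had group means of 34.2 to 41.3, 23.6 to 25.9 and 4.73 to 5.10 RPKM and passed the test neither in KD against 3NC nor in 5NC against 3NC nor in OV against 5NC.

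The other CDK inhibitors differed from one another, with Cdkn2b lower in the comparisons in which Cdkn1a was lower and Cdkn1b not. Cdkn1b, which encodes p27, was at 22.5, 24.4 and 23.0 RPKM in 3NC, 22.9, 24.5 and 24.2 in KD, 36.7, 32.8 and 33.7 in 5NC, and 26.7, 28.5 and 32.8 in OV. 3NC and KD overlapped at the bottom, and 5NC was the highest. Cdkn1b was 0.54 ± 0.07 (SE) higher in 5NC than in 3NC (limma adjusted p = 8.08e-06), where Cdkn1a was lower, and KD differed from 3NC by 0.04, with a 95% interval from -0.11 to 0.18. Cdkn2a, whose INK4A and ARF products are not told apart in a value per gene, was abundant, with group means of 107 to 124 RPKM, and its difference between KD and 3NC was -0.09, with a 95% interval from -0.23 to 0.06. In 5NC it was lower than in 3NC by -0.21 ± 0.07 (adjusted p = 0.0162), a call that ended without 3NC replicate 3 (adjusted p = 0.0774) or 5NC replicate 2 (adjusted p = 0.075). Cdkn2b, which encodes p15, was lower than in 3NC by -0.37 ± 0.08 in KD (limma adjusted p = 0.00169) and by -0.38 ± 0.08 in 5NC (adjusted p = 0.00123).

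Members whose libraries did not overlap between sets of groups were counted for 3 ways of setting the 12 libraries against each other, chosen after the values were seen. Zmat3, Rrm2b, Apaf1, Pidd1, Bcl2, Bcl2l1, Mcl1, Casp8, Casp9, Cdkn2a and Cdkn2b were apart in none of them, and several members were apart in more than one, such as Cdkn1a, Ccng1 and Gadd45a in the first and the third and Trp53, Bax and Bid in the second and the third. In the first 3NC was set against the rest. The 3NC libraries lay above the other 9 for 9 members (22.5%, background 9.58%), Mdm2, Cdkn1a, Ccng1, Btg2, Plk3, Phlda3, Trp53inp1, Pmaip1 and Tnfrsf10b, all of them p53 targets. They lay below the other 9 for 3 members (7.5%, background 11.6%), Gadd45a, Gadd45b and Xpc.

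In the second KD was set against the rest. The KD libraries lay below the other 9 for 10 members (25%, background 14.8%), Trp53, Btg2, Plk2, Bax, Pmaip1, Tnfrsf10b, Aen, Bad, Bak1 and Bid, and 6 of these are p53 targets. They lay above the other 9 for 4 members (10%, background 20.5%), Sesn1, Ddb2, Ei24 and Bcl2l11. Cdkn1a was not among them, and Btg2, Pmaip1 and Tnfrsf10b were apart in both this and the first.

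In the third the vectors were set against each other, and the shares of members were closer to those of all genes. The 6 LV5 libraries lay above the 6 LV3 libraries for 10 members (25%, background 16.7%), Trp53, Gadd45a, Gadd45b, Gadd45g, Xpc, Bax, Bbc3, Bad, Bid and Cdkn1b. They lay below them for 8 members tested (20%, background 16%), Cdkn1a, Ccng1, Trp53inp1, Ddb2, Polk, Ercc5, Fas and Bcl2l11, and also for the untested Eda2r.

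**Figure D4:**
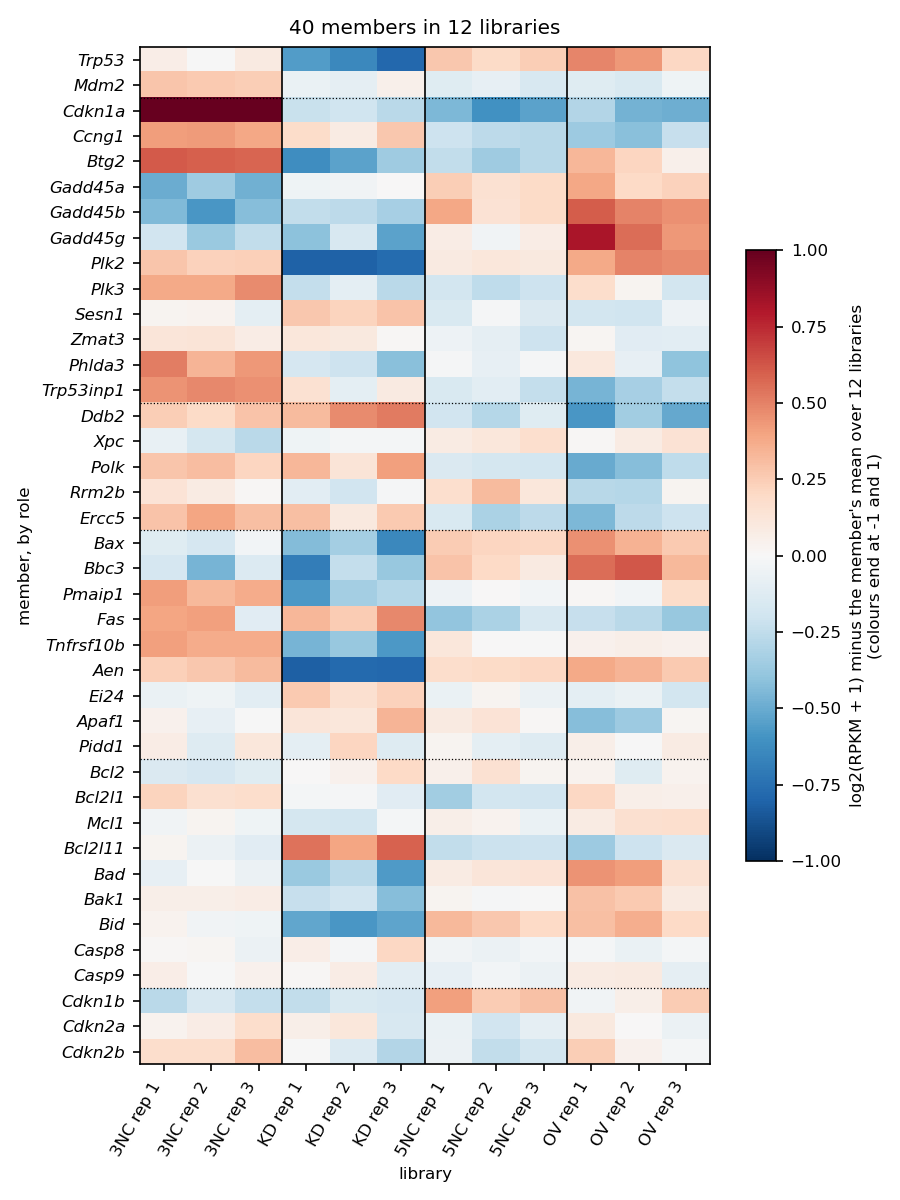
log2(RPKM + 1) of each of the 40 members (vertical axis, by role) in each library (horizontal axis), as the difference from the mean of that member over the 12 libraries, in red above and blue below, with colours ending at -1 and 1. The 3NC columns are red for Cdkn1a, Btg2, Plk3, Phlda3 and Trp53inp1, the KD columns are blue for Plk2, Aen, Trp53 and Bid, and the 5NC and OV columns are red for Gadd45a and Gadd45b, and the OV columns for Gadd45g.

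In OV no member differed from 5NC by more than 0.56 on the log2 scale. Of the 7 that rose compared to 5NC, Btg2, Gadd45g, Plk2 and Bcl2l1 stayed past an adjusted p of 0.05 in limma in all 18 other fits, and of the 4 that fell Rrm2b did. Gadd45b and Ddb2, given above, did so in 17 and 15 of them. Ddb2 fell by 0.28 ± 0.07 (SE, limma adjusted p = 0.0173), and the call ended without 5NC replicate 3 (adjusted p = 0.074), without OV replicate 1 (adjusted p = 0.0815) or with quantile normalization (adjusted p = 0.081). Bak1 (0.21), Cdkn2b (0.25) and Cdkn1b (-0.23) lost their calls without OV replicate 1, with adjusted p of 0.113, 0.19 and 0.138, and each also without OV replicate 2, 5NC replicate 2 or 5NC replicate 3. Bak1 and Cdkn1b lost theirs without 5NC replicate 1 as well, and Cdkn2b without 3NC replicate 1 or 3NC replicate 2. Bak1, Cdkn2b and Cdkn1b each also lost the call with no filter on low values. Quantile normalization ended that of Bak1, and only the 6 libraries compared ended those of Cdkn2b and Cdkn1b. Cdkn2b lost its call with no intensity trend too. The count of 11 members became 18 without OV replicate 3, and 6 or 7 without OV replicate 1, OV replicate 2, 5NC replicate 2 or 5NC replicate 3.

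Other genes of the pathway were taken from lists that hold no member. Of 35 further p53 targets tested, 16 fell (45.7%, background 23.5%) and 4 rose (11.4%, background 31.9%) in KD compared to 3NC, around a median log2 difference of -0.17. In 5NC 18 were lower (51.4%, background 25.6%) and 8 higher (22.9%, background 31%) than in 3NC, around -0.25. Among those that fell in KD by the study's rule were Ier3 (-1.54), an immediate early gene, and Ddit4 (-1.09), an inhibitor of mTORC1. Among those lower in 5NC than in 3NC by this rule were the decoy receptor Tnfrsf23 (-1.25) and the adenylate kinase Ak1 (-1.06). In KD compared to 5NC 14 of the 35 were lower (40%, background 31.4%) and 10 higher (28.6%, background 34%), around a median of -0.04, and those lower by the study's rule were Gdf15 (-1.58), a stress cytokine, Sco2 (-1.54), Sesn2 (-1.13) and Perp (-1.08). In OV 6 of the 35 rose (17.1%, background 8.07%) and 2 fell (5.71%, background 13.9%) compared to 5NC.

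Of 30 cell cycle genes that p21 and DREAM repress, 11 fell (36.7%, background 23.5%) and 5 rose (16.7%, background 31.9%) in KD compared to 3NC, around a median of -0.05 and with a range from -0.38 to 0.54. In 5NC 16 were lower (53.3%, background 25.6%) and 6 higher (20%, background 31%) than in 3NC, around -0.19. In KD compared to 5NC, where Cdkn1a was higher, 16 were higher (53.3%, background 34%) and 10 lower (33.3%, background 31.4%), around 0.18. By the study's rule 0 of the 30 genes passed in these comparisons, while at an unadjusted p under 0.05 in limma 5 were higher and 12 lower in KD against 3NC, 6 higher and 17 lower in 5NC against 3NC, and 16 higher and 10 lower in KD against 5NC. Of 17 partners and regulators of p53 tested, a list that holds upstream kinases and cofactors, 4 fell (23.5%, background 23.5%) and 3 rose (17.6%, background 31.9%) in KD, around -0.01, and 4 were lower (23.5%, background 25.6%) and 7 higher (41.2%, background 31%) in 5NC, around 0.07. In KD compared to 5NC 8 of the 17 were lower (47.1%, background 31.4%) and 3 higher (17.6%, background 34%), around -0.12. Of 27 other apoptosis genes tested, 6 fell (22.2%, background 23.5%) and 9 rose (33.3%, background 31.9%) in KD, around -0.02, and 12 were lower (44.4%, background 25.6%) and 7 higher (25.9%, background 31%) in 5NC, around -0.06. In KD compared to 5NC 8 of the 27 were lower (29.6%, background 31.4%) and 11 higher (40.7%, background 34%), around 0.03. By the study's rule 1 of these 27 was lower in 5NC, the mitochondrial Bnip3 (-2.36), with means of 114 RPKM in 3NC and 21.3 in 5NC, and it was the 1 gene of this list that passed the rule in KD against 5NC, where KD was higher (1.94).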

How the data were processed

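RNA of 12 libraries of C18-4 cells was sequenced on an Illumina instrument after oligo(dT) enrichment. The authors mapped reads to reference genes with SOAPaligner 2.20 and deposited RPKM values in 1 table of 17576 genes. The genome build and the counting of reads shared by related genes are not given in the sources used here. RPKM keeps no number of reads, so depth and counting error are unknown, and no correction between libraries for gene length or base composition is stated. Groups were taken from the sample labels.

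From these values log2(RPKM + 1) was computed, and the 11435 genes that reached 1 RPKM in 3 or more libraries were fitted with limma 3.58.1 in R 4.3.3, with a group term for all 12 libraries, eBayes with an intensity trend, and Benjamini-Hochberg adjustment over all genes tested. The fit was tested on simulated data. Count tests were not used because the table holds RPKM. Means ± SD are over 3 libraries and intervals are at 95%. Promoters were searched in Python 3.11.15 and figures were drawn with matplotlib 3.10.9.

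The members and lists were chosen with earlier results of these data known, so they are described by counts and medians beside those of all genes, with no test over a list. The list of ERK output genes was chosen because those results showed it lower. Library values are given for members past the rule of the study in any comparison, for members with an adjusted p of at most 0.05 and a log2 difference of at least 0.5 in size in KD against 3NC, OV against 5NC or 5NC against 3NC, and for Trp53 and Mdm2. From each list at most 5 genes past the rule of the study are named. One gene of these lists is not reported here. The alternatives were a pseudocount of 0.1, no filter, quantile normalization, no intensity trend, only the 6 libraries compared, a replicate block, other thresholds, 5NC as the control of KD, and each library left out in turn.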

Additional observations from a re-analysis of the deposited data

How the results depend on the processing

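Over 18 other fits in limma (a pseudocount of 0.1, no filter on low values, quantile normalization, no intensity trend, only the 6 libraries compared, a replicate block and each of the 12 libraries left out), the same 4 members, Btg2, Plk2, Cdkn1a and Aen, passed the study's rule in KD against 3NC, and no call at an adjusted p of at most 0.05 reversed its direction. Members not called in a comparison were not followed over these fits. Members called by the study's rule numbered 4 for KD against 3NC, and 0 with 5NC as the control. With the looser threshold of 0.05 and any fold, 25 members were called for KD against 3NC, 11 for OV against 5NC, 28 for 5NC against 3NC and 30 for KD against 5NC. By the study's rule, which called 1 member in 5NC against 3NC and 0 in KD against 5NC, a pseudocount of 0.1 gave 2 and 1. At the looser threshold OV against 5NC gave 11 members, 7 with no filter on low values, and 6 to 18 with 1 library left out. The same omissions gave 22 to 28 for KD against 3NC, 25 to 30 for 5NC against 3NC and 25 to 32 for KD against 5NC. The median of the other p53 targets in KD against 5NC was 0.037, and -0.045 to 0.067 with 1 library left out, the lowest without KD replicate 2. Of the calls at 0.05, 22 of 25, 5 of 11, 23 of 28 and 24 of 30 held in all 18 fits for KD against 3NC, OV against 5NC, 5NC against 3NC and KD against 5NC. The cause of the lost calls was not tested.

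Replicate numbers are shared by all groups, but the correlations of same-numbered libraries ran from -0.178 to 0.354, with 5 of 18 over 0.1 and in 8 of the 18 the best correlation within the group pair was that of the shared number, so they were not taken to pair the libraries. With the replicate block the study's rule called 4 members in KD against 3NC and the median of the other p53 targets there was -0.18. The block ended only the calls of Btg2 (adjusted p = 0.0518), Xpc (0.0679) and Mcl1 (0.0518) in KD against 5NC, and no other call at 0.05.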

Other observations

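Many of the genes that the ERK pathway raises, a list chosen because earlier results of these data showed it lower, shared the high level in 3NC with part of the p53 targets. Its counts describe that choice and support nothing. Of 19 tested, 18 (94.7%, background 23.5%) were lower in KD than in 3NC and 0 higher (background 31.9%) in limma at an adjusted p of at most 0.05 or an unadjusted p under 0.05, 11 of them lower by the study's rule, around a median log2 difference of -1.19, and 13 were lower (68.4%, background 25.6%) and 1 higher (5.26%, background 31%) in 5NC than in 3NC, around -0.84. In OV compared to 5NC 9 rose (47.4%, background 8.07%) and 1 fell (5.26%, background 13.9%), around 0.24. The AP-1 subunit Fosl1 was at a mean of 31.0 RPKM in 3NC and at 0.983, 1.72 and 3.30 RPKM in KD, 5NC and OV. The ERK phosphatase Dusp4 was at a mean of 23.95 RPKM in 3NC and at 7.03, 13.02 and 17.1 RPKM in KD, 5NC and OV. Several genes of the list were not highest in 3NC, Myc among them, which is given below. Ier3 belongs to this list and to the further p53 targets. Whether the p53 targets and these genes move together for one reason was not tested.

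The early response gene Myc had a mean of 7.63 RPKM in KD, of 23.4 in 3NC, of 34.2 in 5NC and of 41.8 in OV. Myc belongs to the list of ERK output genes and is the 1 gene of it that was higher in 5NC than in 3NC (log2 difference 0.53, limma adjusted p = 1.65e-06). The macrophage gene Cd68 was highest in 3NC, with a mean of 5.05 RPKM, against means of 2.69, 2.18 and 1.86 RPKM in KD, 5NC and OV, while the blood marker Ptprc reached at most 0.07 RPKM.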
